A study of Mus musculus with 6 samples.

Results

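The BMP receptor and Smad pathway was followed through 10 genes, chosen by symbol from the deposited count table of 54429 genes. They were the receptors Acvrl1 and Bmpr2, the receptor-activated Smads Smad1, Smad5 and Smad9, the inhibitory Smads Smad6 and Smad7, and the Id genes Id1, Id2 and Id3. Of these 10 genes, 9 passed the filter on low counts and Smad9 did not. BMP ligands bind pairs of type I and type II receptor kinases at the cell surface, and the type I kinase phosphorylates Smad1, Smad5 or Smad9, which enter the nucleus with Smad4 and bind regulatory DNA. Among the genes they switch on are the Id genes, whose proteins bind E proteins and keep them off DNA, and the inhibitory Smads, which feed back on the receptors. In endothelium the pathway is known for its part in vascular quiescence, angiogenesis and arteriovenous patterning, and loss of Acvrl1 or Bmpr2 function underlies inherited vascular disease.

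RNA-seq covered 6 libraries of primary aortic endothelial cells (EC) from adult wild-type C57BL/6 mice, 3 transduced with a vector that overexpressed Meis1 (Meis1-OE) and 3 with a control vector (YFP-CTRL). The EC were purchased from a supplier, and whether the replicates came from different animals is not stated. Meis1 is a homeodomain transcription factor, and the comparison asked what its overexpression changed in adult aortic EC. In both conditions cells were transduced in culture for 48 h, YFP+CD31+VEC+ cells were sorted at 72 h, plated again and grown to confluency before harvest, so each library reports an expanded sorted culture and not EC in the vessel wall. Libraries are named by their letters in the table, and values are given in the order A, B, C for each condition. In bulk RNA, fewer cells of a type and less RNA per cell cannot be told apart, and p-values measure the spread between these samples.

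The libraries held between 34176592 and 47956569 counts. Levels are given in CPM, counts scaled to library size with TMM factors. Meis1 was counted 135325, 157828 and 149221 times in Meis1-OE EC and 39, 58 and 85 times in YFP-CTRL EC. The 3 YFP-CTRL libraries differed among themselves in proliferation genes. The proliferation score, the mean log2(CPM + 1) of 15 such genes, was 4.15, 5.11 and 6.29 in YFP-CTRL EC and lay between 6.32 and 6.38 in Meis1-OE libraries. The summed level of these genes was 421 to 1799 CPM in YFP-CTRL and 1880 to 1913 CPM in Meis1-OE. In edgeR's quasi-likelihood test 0 of the 15 genes passed (1 of 15 was higher with DESeq2). All 15 log2 fold changes were positive, and 2 genes had an unadjusted p under 0.05, beside 26.2% of all genes tested. Without YFP-CTRL library C, edgeR called 14 of the 15 genes higher. In that fit 16.5% of all genes tested were higher. The 8 endothelial marker genes summed to 3179 to 3944 CPM in Meis1-OE and 4379 to 6049 CPM in YFP-CTRL. This sum weighs the most abundant genes most, such as Cdh5 with means of 1316 and 2143 CPM. Of the 8 genes, 3 had positive and 5 negative log2 fold changes, and 1 (Tek, lower) passed edgeR's test, beside 6.87% of all genes tested. Kdr (log2 fold change -1.23, edgeR, adjusted p = 0.0504) and Cdh5 (-0.70, 0.0535) narrowly missed the threshold. In edgeR 4 of the 8 were lower at an unadjusted p under 0.05, beside 26.2% of all genes tested in either direction. In 3 of the 8 all Meis1-OE values lay below all YFP-CTRL values, beside 15.9% of all genes tested. The 9 fibroblast and smooth muscle markers summed to 3.97 to 5.95 CPM and 1.65 to 22.9 CPM, with Lum at 0 in all libraries and the highest sum in YFP-CTRL library C. The 7 macrophage markers summed to at most 1.48 CPM, with C1qa, C1qb and Tyrobp at 0 throughout. Of the 3 lymphatic endothelial markers, Pdpn was at 0 and Prox1 had 2 counts in 1 library and 0 in the others, so the list came down to Lyve1, at 76.1 to 84.1 CPM in Meis1-OE and 161 to 461 CPM in YFP-CTRL. The part of these differences in the results that follow was not tested, except that the proliferation score was also entered as a covariate. The score did not overlap between conditions and hardly varied in Meis1-OE, so its slope in that fit rests mainly on the 3 YFP-CTRL libraries. That fit therefore cannot cleanly separate the score from the condition.

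No change of the 9 tested genes passed the threshold. The count was 0 of 9 with edgeR's quasi-likelihood test at a Benjamini-Hochberg adjusted p under 0.05 and also 0 of 9 with the DESeq2 Wald test, against 6.87% of the 16065 genes tested with edgeR (4.14% higher and 2.73% lower) and 12.4% of the 18158 genes tested with DESeq2. At an unadjusted p under 0.05 in edgeR there were 2 of 9, Smad6 with a positive and Smad1 with a negative log2 fold change, beside 26.2% of all genes tested. The 3 Meis1-OE libraries did not overlap the 3 YFP-CTRL libraries for 2 of 9 genes, Id2 (all higher) and Smad1 (all lower), beside 33.1% of all genes tested, 17.2% higher and 15.9% lower. The median log2 fold change of the 9 genes was 0.05, with 7 positive and 2 negative, and the median of all genes tested was 0.01. Over 9 genes these shares were near those of all genes tested, and with the proliferation score as covariate 2 of 9 genes passed, beside 4.24%.

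**Figure D1:**
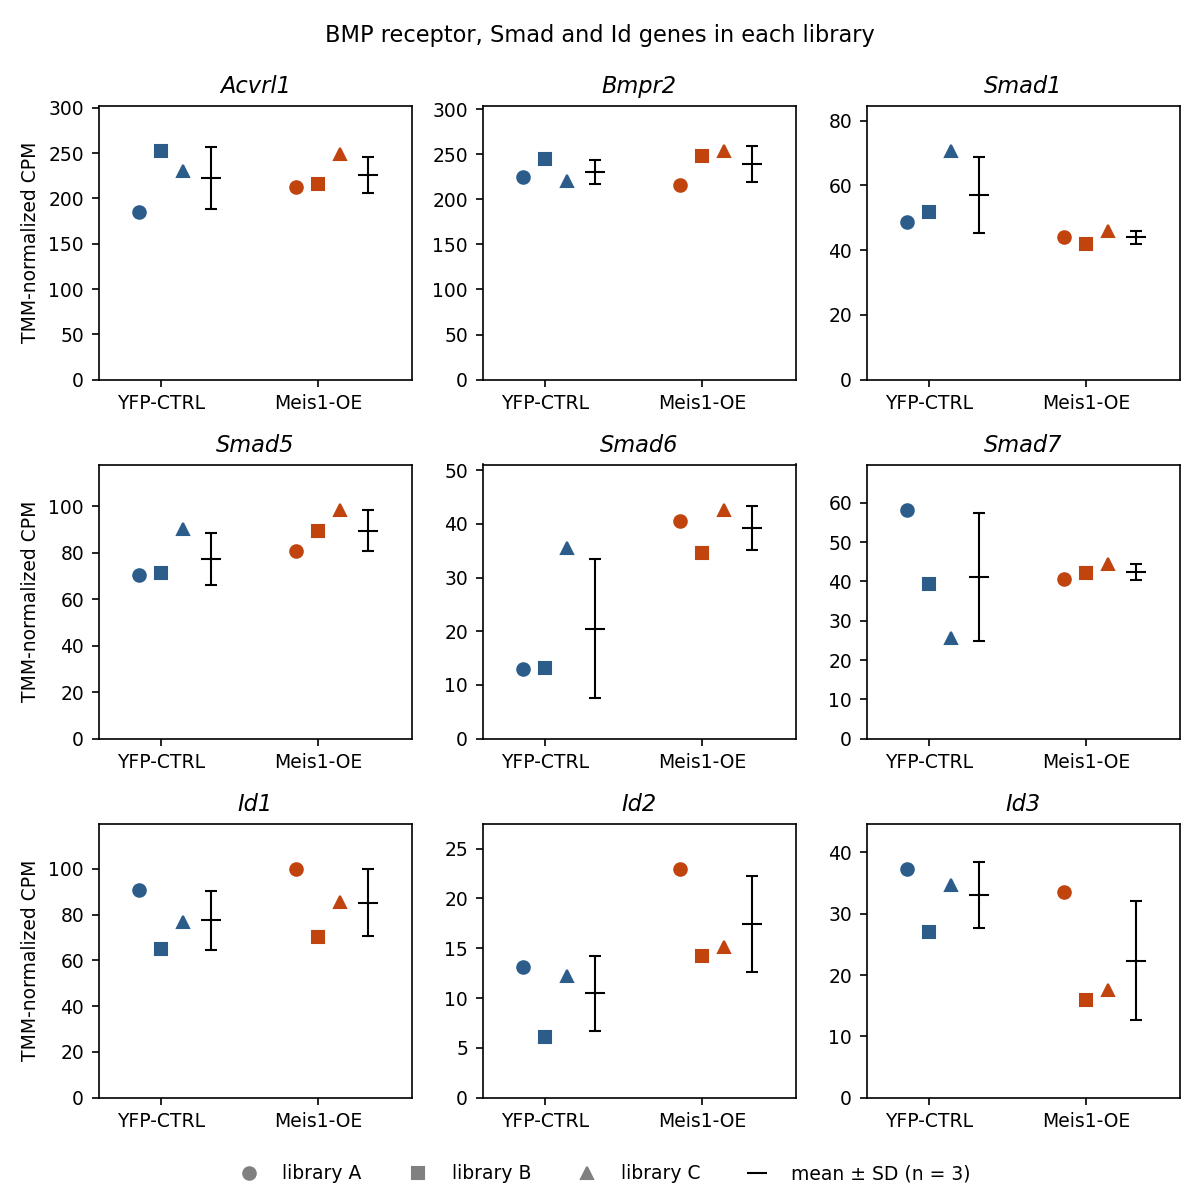
Level of the 9 tested genes in TMM-normalized CPM, on a linear axis from 0, with 1 point per library (circle A, square B, triangle C) and the mean ± SD of 3 libraries in black. The Meis1-OE points of Smad6, Smad7 and Smad1 lie close together while their YFP-CTRL points are spread, and the groups do not overlap for Id2 and Smad1.

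Both receptors were well expressed and close in level between the conditions. Positions are those of RefSeq on GRCm38.p6 (mm10). Acvrl1, the endothelial type I receptor also called ALK1 (chr15:101128522-101145336), stood at 213, 216 and 249 CPM in Meis1-OE EC and at 185, 252 and 231 CPM in YFP-CTRL EC. The groups overlapped, with the lowest and the highest value both in YFP-CTRL. The log2 fold change (Meis1-OE minus YFP-CTRL) was 0.02 (standard error 0.14, 95% interval -0.32 to 0.35, edgeR, adjusted p = 0.951). Bmpr2, the type II receptor that phosphorylates the type I kinase (chr1:59764279-59878081), stood at 216, 248 and 253 CPM in Meis1-OE and at 225, 245 and 221 CPM in YFP-CTRL. Its groups overlapped as well, and the means of 239 ± 20.1 and 230.2 ± 13.1 CPM (SD, n = 3 each) differed by less than their spread. The log2 fold change of Bmpr2 was 0.05 with a 95% interval of -0.20 to 0.31 (edgeR, adjusted p = 0.795), so changes beyond those bounds lay outside the interval.

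Smad1 and Smad5, the closely related Smads that BMP receptors phosphorylate, had log2 fold changes of opposite sign, neither of them past the threshold. Smad1 (chr8:79338395-79399428) stood at 44.1, 42.0 and 45.8 CPM in Meis1-OE EC and at 48.8, 51.9 and 70.6 CPM in YFP-CTRL EC. Every Meis1-OE value lay below every YFP-CTRL value, and the highest control value was that of library C. The mean was 43.9 ± 1.91 CPM in Meis1-OE and 57.1 ± 11.8 CPM in YFP-CTRL (SD, n = 3 each), and the log2 fold change was -0.38 (standard error 0.16, edgeR's unadjusted p = 0.0472, adjusted p = 0.185). With the proliferation score added as a covariate the value was -0.66 (edgeR, adjusted p = 0.0285), and it was -0.21 once YFP-CTRL library C was left out. Smad5 (chr13:56703010-56742378) stood at 80.8, 89.3 and 98.3 CPM in Meis1-OE and at 70.5, 71.3 and 90.2 CPM in YFP-CTRL. Here the groups overlapped through YFP-CTRL library C. For Smad5 the log2 fold change was 0.21 (standard error 0.14, edgeR, adjusted p = 0.380), which became 0.32 without YFP-CTRL library C (edgeR, adjusted p = 0.0469), a fit in which 31.7% of all genes tested passed (16.5% of all genes tested were higher). Smad9 (chr3:54755455-54801662), the third Smad of this kind, had 0, 1 and 2 counts in Meis1-OE and 0, 1 and 1 counts in YFP-CTRL, which is at or below the floor of 3 counts in each library and allows no fold change.

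The ratio of Smad1 to Smad5 within a library needs no scaling between libraries. The log2 ratio of their counts was -0.87, -1.09 and -1.10 in Meis1-OE EC and -0.53, -0.46 and -0.35 in YFP-CTRL EC. The groups did not overlap, and the mean log2 ratio was 0.57 units further below 0 in Meis1-OE (difference -0.57). An exact two-sided permutation test gave p = 0.1, the smallest value that 3 libraries against 3 allow, and an adjusted p of 0.4 over the 36 ratios of the 9 genes. This ratio was picked out after the values of the 36 were seen, 9 of which had no overlap and the same p, some with larger differences (Smad6 to Id3, 1.74, and Smad1 to Smad6, -1.46).

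Smad6, the inhibitory Smad that acts mainly on BMP receptors, had the largest log2 fold change of the 9 genes and the largest coefficient of variation among the controls. It is also among the genes that the study lists as putative Meis1 targets, and since that list was drawn up partly on these libraries, its direction here is not independent evidence. One condition of that list was a higher level in Meis1-OE than in YFP-CTRL EC in the study's RNA-seq. Here DESeq2 gave Smad6 a log2 fold change of 0.93 (adjusted p = 0.0915), which did not pass the threshold used here. Counts of Smad6 were 1856, 1572 and 1970 in Meis1-OE EC and 439, 535 and 1612 in YFP-CTRL EC, or 40.6, 34.6 and 42.5 CPM against 12.9, 13.1 and 35.5 CPM. YFP-CTRL libraries A and B were far below the other 4, and YFP-CTRL library C was above Meis1-OE library B, so the groups overlapped. The coefficient of variation was 63.2% in YFP-CTRL and 10.5% in Meis1-OE. The mean was 39.3 ± 4.12 CPM in Meis1-OE and 20.5 ± 13.0 CPM in YFP-CTRL (SD, n = 3 each), a ratio of 1.91, and the log2 fold change was 0.94 (standard error 0.39, 95% interval 0.02 to 1.85, edgeR's unadjusted p = 0.0463, adjusted p = 0.183). Of the single libraries left out, YFP-CTRL library C moved this value most. Without it the log2 fold change was 1.58 (edgeR, adjusted p = 0.000772), in a fit where 31.7% of all genes tested passed (16.5% were higher). The log2 fold change was 0.69 and 0.70 without YFP-CTRL library A or B. Entering the proliferation score as a covariate gave 0.26 (edgeR, adjusted p = 0.627).

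The Smad6 promoter is shown because it carries a match to the Meis motif and a match to the Smad palindrome. It lies on the minus strand of build GRCm38.p6 (mm10), with the start of the RefSeq transcript at base 64022059 of chromosome 9, and the gene spans chr9:63953076-64022085. The 250 bases before that start, read 5′ to 3′, have the Meis match (the reverse complement of TGACAG) and the first bases of the palindrome in capitals, and the 30 bases around the start have the whole palindrome in capitals. The corresponding 250 bases of Id2, the gene whose Meis1-OE libraries all lay above the controls, have a GC-rich Smad site in capitals.
Smad6 upstream, chr9:64022060-64022309, minus strand: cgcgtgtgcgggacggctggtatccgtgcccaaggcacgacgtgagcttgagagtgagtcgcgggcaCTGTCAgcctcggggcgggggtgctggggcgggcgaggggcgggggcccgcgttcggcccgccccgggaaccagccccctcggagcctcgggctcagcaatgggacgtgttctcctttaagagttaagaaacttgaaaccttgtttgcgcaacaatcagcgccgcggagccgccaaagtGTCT
Smad6 start, chr9:64022045-64022074, minus strand: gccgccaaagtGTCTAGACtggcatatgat
Id2 upstream, chr12:25096093-25096342, minus strand: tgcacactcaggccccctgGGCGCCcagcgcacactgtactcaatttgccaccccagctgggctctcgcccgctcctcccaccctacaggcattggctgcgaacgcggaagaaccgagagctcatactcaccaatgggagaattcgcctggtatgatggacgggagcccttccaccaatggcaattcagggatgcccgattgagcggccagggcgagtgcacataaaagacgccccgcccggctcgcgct

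RefSeq promoter windows of 300 bases, 250 before and 50 after the start, were searched for 7 of the 10 genes, in 9 windows. Windows on chromosome 18, where Smad7 lies, were left out of the search, and Id1, Acvrl1 and Smad7 were not searched. The following motifs were searched on both strands: the Meis motif TGACAG, the Smad palindrome GTCTAGAC and the GC-rich Smad site GGCGCC, none of which overlapped another in these windows. Among these 9 windows TGACAG was in that of Smad6 only, with its first base at -183. It was in 19.2% of the 32851 windows of the genome. GTCTAGAC was likewise in the Smad6 window only, with its first base at -4, and in 0.213% of all windows (70 windows). GGCGCC was in windows of Bmpr2, Id2, Smad5 and Smad9 and in 11.9% of all windows. These matches describe letters in the reference, and binding was not measured in these libraries.

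Smad7, the inhibitory Smad that acts on both TGF-beta and BMP receptors, ran the other way among the controls. It stood at 40.6, 42.2 and 44.5 CPM in Meis1-OE EC and at 58.1, 39.4 and 25.6 CPM in YFP-CTRL EC. The Meis1-OE values sat inside the range of the controls, of which library A was the highest for Smad7 and the lowest for Smad6. The coefficient of variation was 39.7% in YFP-CTRL and 4.65% in Meis1-OE, and the log2 fold change was 0.05 (standard error 0.27, 95% interval -0.58 to 0.68, edgeR, adjusted p = 0.933). It was -0.21 without YFP-CTRL library C and 0.36 without YFP-CTRL library A, and entering the proliferation score as a covariate gave 0.76 (edgeR, adjusted p = 0.0214), where 4.24% of all genes tested passed. In the same 3 control libraries the proliferation score ran from 4.15 in A to 6.29 in C. Over 3 libraries this order is a description. The fit with the covariate cannot cleanly separate the score from the condition, since the score did not overlap between conditions. Beyond that fit, the part of the score in the values of Smad6 and Smad7 was not tested. The log2 ratio of Smad6 to Smad7 counts was 0.00, -0.28 and -0.06 in Meis1-OE EC and -2.17, -1.59 and 0.47 in YFP-CTRL EC, and the groups overlapped (exact two-sided permutation p = 0.4).

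**Figure D2:**
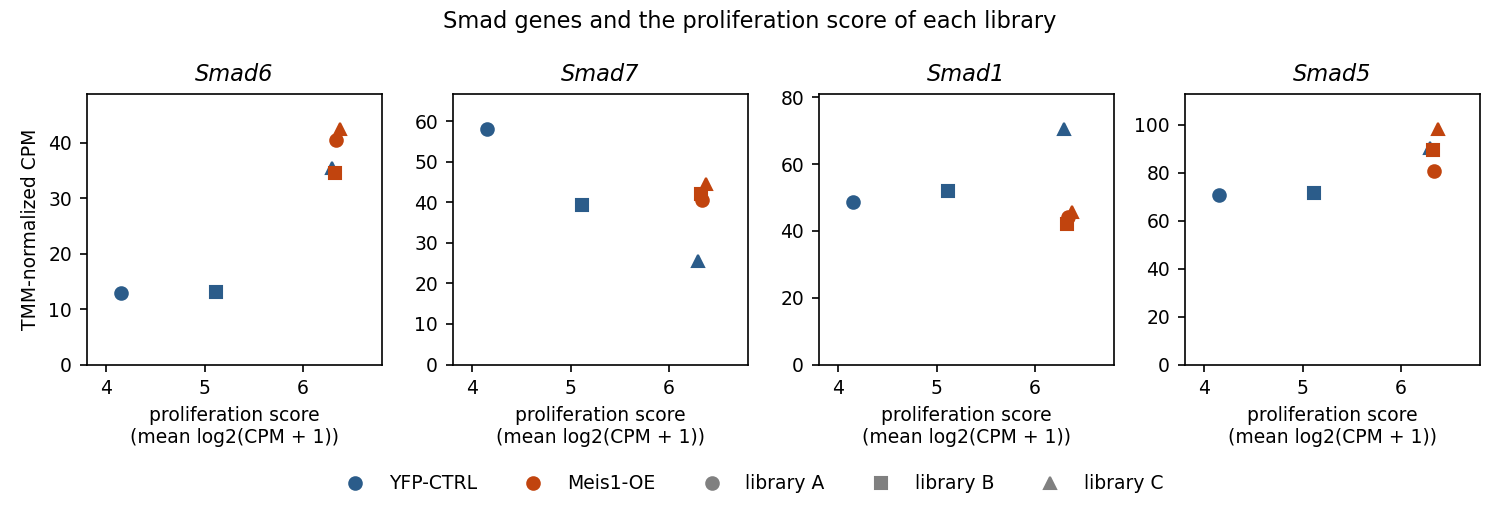
Level of Smad6, Smad7, Smad1 and Smad5 in TMM-normalized CPM (vertical, from 0) against the proliferation score, the mean log2(CPM + 1) of 15 proliferation genes (horizontal), with 1 point per library, Meis1-OE in orange and YFP-CTRL in blue. The YFP-CTRL points span scores from 4.15 to 6.29, with Smad6 at 12.9, 13.1 and 35.5 CPM and Smad7 at 58.1, 39.4 and 25.6 CPM in libraries A, B and C, while the 3 Meis1-OE points sit together at 6.32 to 6.38.

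The 3 Id genes, usual readouts of BMP signaling, showed no common direction, and none passed the threshold. Id1 (chr2:152736251-152737410) stood at 99.8, 70.3 and 85.6 CPM in Meis1-OE EC and at 90.7, 64.8 and 76.8 CPM in YFP-CTRL EC. The groups interleaved, and the log2 fold change was 0.14 (standard error 0.18, 95% interval -0.27 to 0.55, edgeR, adjusted p = 0.657). Id2 (chr12:25093799-25096092) stood at 22.9, 14.2 and 15.1 CPM in Meis1-OE and at 13.1, 6.10 and 12.2 CPM in YFP-CTRL. All Meis1-OE values lay above all YFP-CTRL values. The log2 fold change of Id2 was 0.74 (standard error 0.32, 95% interval -0.01 to 1.48, edgeR's unadjusted p = 0.0523, adjusted p = 0.195), and it ranged from 0.48 to 0.93 when single libraries were left out. Id3 (chr4:136143822-136145392) stood at 33.5, 15.9 and 17.6 CPM in Meis1-OE and at 37.3, 27.0 and 34.7 CPM in YFP-CTRL. Meis1-OE libraries B and C were below all controls and Meis1-OE library A was among them. The log2 fold change of Id3 was -0.56 (standard error 0.29, 95% interval -1.25 to 0.13, edgeR, adjusted p = 0.273), and it was -0.97 without Meis1-OE library A (edgeR, adjusted p = 0.0674).

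In both conditions all 3 Id genes were highest in library A, intermediate in library C and lowest in library B, so their order followed the column letter. The log2 ratio of Id2 to Id3 counts was -0.55, -0.16 and -0.23 in Meis1-OE EC and -1.51, -2.14 and -1.51 in YFP-CTRL EC. The groups did not overlap and differed by 1.41 in mean log2 ratio (exact two-sided permutation p = 0.1, the smallest possible, adjusted p = 0.4 over the 36 ratios, and picked out after their values were seen).

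**Figure D3:**
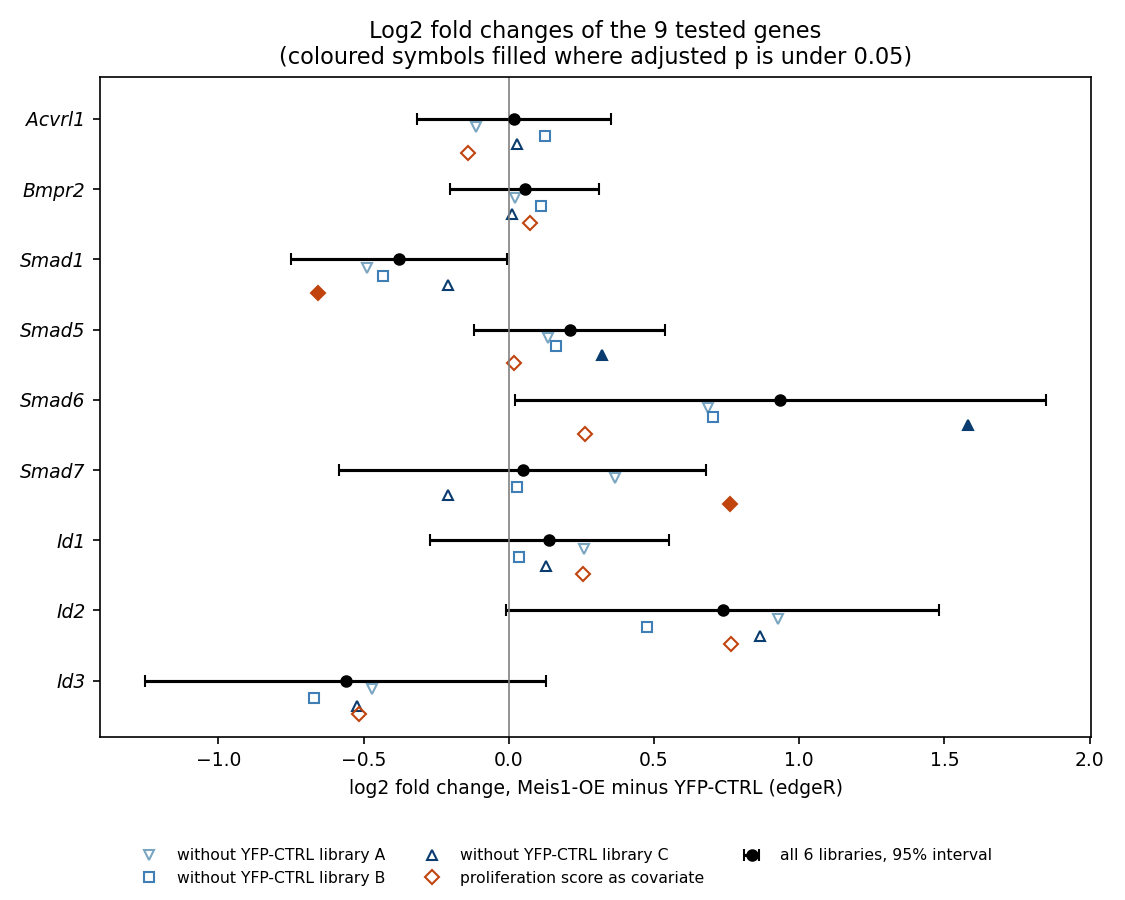
Log2 fold change of the 9 tested genes, Meis1-OE minus YFP-CTRL, in edgeR (horizontal), with the 95% interval over 6 libraries in black, and the value without each YFP-CTRL library or with the proliferation score as a covariate in color, filled where the adjusted p was under 0.05. Filled symbols appear for Smad5 and Smad6 without YFP-CTRL library C and for Smad1 and Smad7 with the covariate, and Smad6 moves from 0.26 to 1.58.

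Per kilobase of the exonic lengths used, the receptors and Id1 ranked above the other genes, an order that depends on those lengths. In YFP-CTRL the order in CPM per kilobase was Id1 at 66.8 ± 11.2, Bmpr2 at 65.6 ± 3.72 and Acvrl1 at 52.2 ± 8.0 (SD, n = 3 each). The ranges of Id1 and Bmpr2 overlapped, and all Bmpr2 values were above all Acvrl1 values. Id3 followed at 18.4 ± 3.0 CPM per kilobase, with no overlap to either neighbor. Smad5 at 10.4 ± 1.5, Smad1 at 9.82 ± 2.02, Smad7 at 9.08 ± 3.61, Id2 at 8.23 ± 2.99 and Smad6 at 6.54 ± 4.13 CPM per kilobase overlapped each with its neighbors, and Smad9 was last at 0.00289. In Meis1-OE the first 3 kept their order at 73.5, 68.2 and 52.9 CPM per kilobase. Id2 then stood at 13.7 ± 3.78, Smad6 at 12.5 ± 1.31, Id3 at 12.5 ± 5.42, Smad5 at 12.1 ± 1.18, Smad7 at 9.38 ± 0.436 and Smad1 at 7.56 ± 0.328 CPM per kilobase. Here the ranges of Id2, Smad6, Id3 and Smad5 overlapped each with its neighbor, while those of Smad5, Smad7 and Smad1 were separate. Lengths come from a GENCODE annotation that may differ from the one used for counting. Its Bmpr2 has 3507 exonic and 3114 coding bases, so it holds little untranslated sequence, and the level of Bmpr2 per kilobase may be overstated. Its Id1 has 1160 exonic bases, the length of the whole RefSeq gene. For Id3 it has 1791, above the 1571 bases of the RefSeq gene. The levels of Id1 and Id3 per kilobase may therefore be understated.

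For the receptor, the Smad and the Id gene with the smallest unadjusted p, the genes most like them were sought by the Pearson correlation of log2 CPM over the 6 libraries, among 9618 genes. Smad6 was most like Mov10 (r = 0.999), Ctdspl (r = 0.999) and Actr8 (r = 0.997), and 553 genes had an r above 0.95. Id2 was most like Pot1b (r = 0.986), P4ha2 (r = 0.984) and Atg2a (r = 0.981), with 17 genes above 0.95. Bmpr2 was most like Sacm1l (r = 0.995), Ndufa1 (r = 0.994) and Psap (r = 0.981), with 24 genes above 0.95. These values describe only 6 libraries, which differ by condition and in depth.

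Around these 10 genes, 68 other genes of the pathway were listed, of which 40 passed the filter. With edgeR's quasi-likelihood test 2 were higher and 3 lower in Meis1-OE, or 5 of 40 beside 6.87% of all genes tested, and 18 of 40 did not overlap between conditions (7 higher and 11 lower) beside 33.1%. Their median log2 fold change was -0.24, against 0.01 over all genes tested. The 5 that passed were Grem1 and Hey1 (higher) and Bmp4, Tob2 and Fkbp1a (lower).

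**Figure D4:**
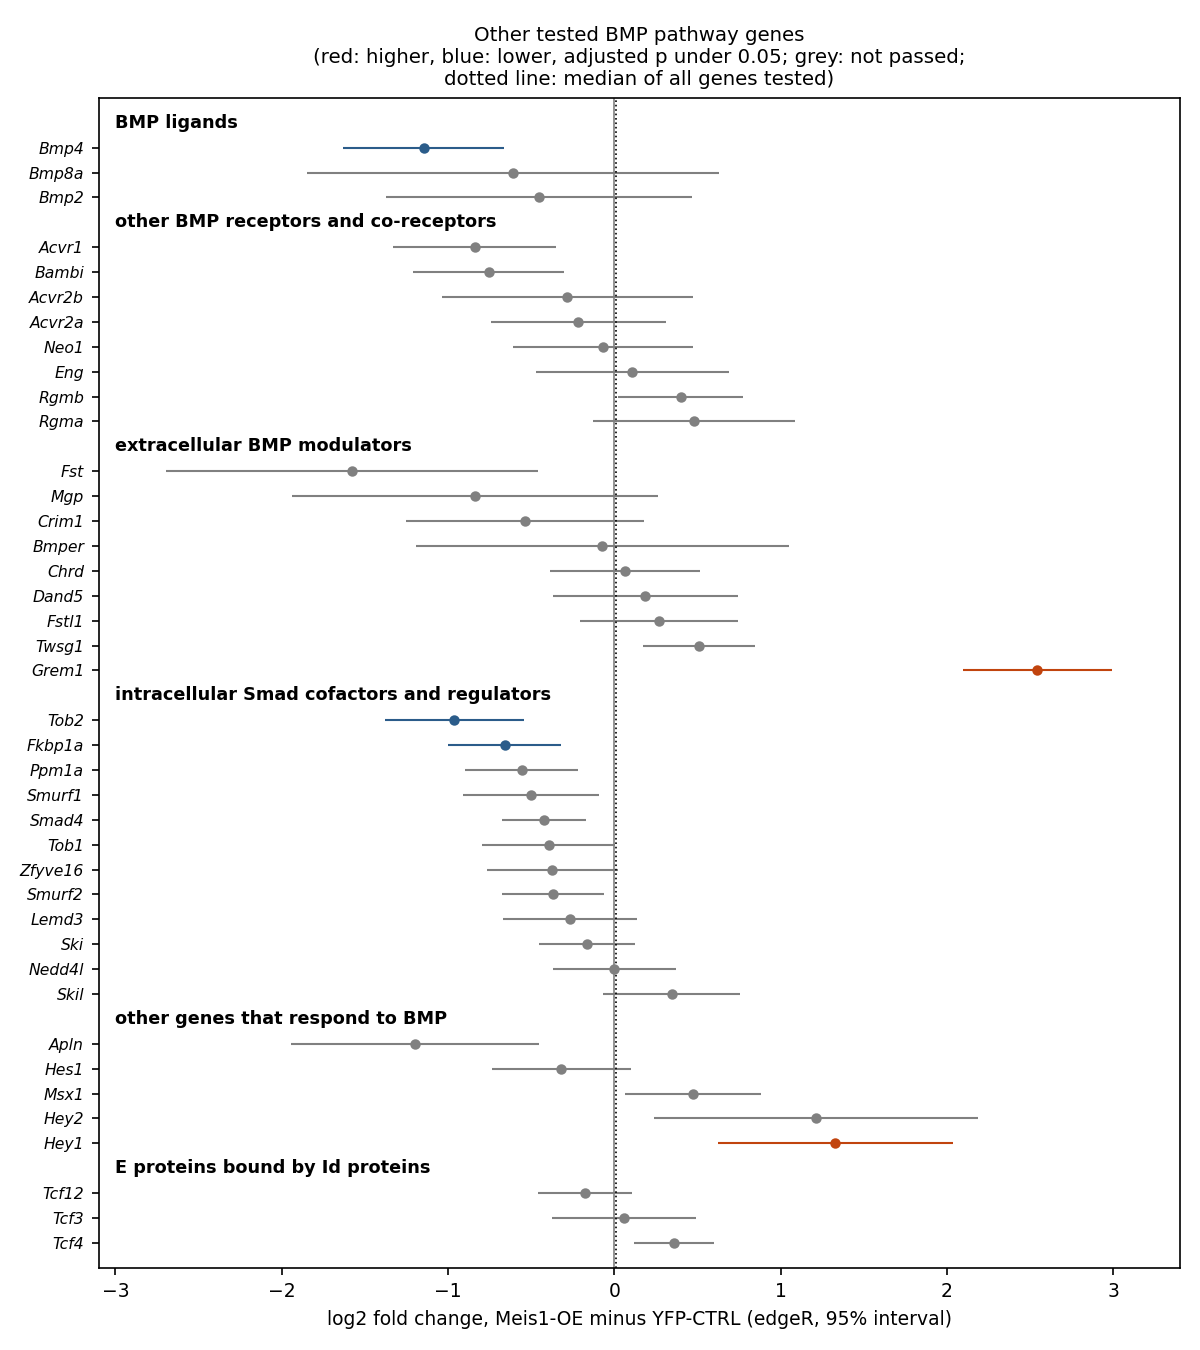
Log2 fold change with 95% interval of the 40 tested pathway genes outside the 10 (horizontal, edgeR, Meis1-OE minus YFP-CTRL), grouped by role, with genes of adjusted p under 0.05 in orange (higher) or blue (lower) and all others in gray. Grem1 at 2.54 and Hey1 at 1.33 stand on the right, Bmp4 at -1.15, Tob2 at -0.96 and Fkbp1a at -0.66 on the left, and the dotted line is the median of all genes tested.

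Among the 14 ligands, 3 passed the filter and 1 of them, Bmp4, was lower, with a median log2 fold change of -0.61. Bmp4, a ligand of the BMP type I receptors, had 208, 166 and 183 counts in Meis1-OE EC and 299, 290 and 500 counts in YFP-CTRL EC. The highest Meis1-OE level, 4.55 CPM, was below the lowest control level, 7.11 CPM. Bmp4 fell from 8.97 ± 1.95 to 4.05 ± 0.455 CPM (SD, n = 3 each). The log2 fold change was -1.15 (standard error 0.21, edgeR, adjusted p = 0.0234). The call was lost without any 1 Meis1-OE library, where the adjusted p in edgeR was 0.0688, 0.146 and 0.127 without library A, B or C. In those fits the log2 fold change of Bmp4 was -1.24, -1.07 and -1.13. Of all genes tested, 2.43%, 0.798% and 0.875% passed in them, beside 6.87% with all libraries. Bmp2, a related ligand, was barely present at no more than 0.265 CPM in any library, with a log2 fold change of -0.45 (edgeR, adjusted p = 0.501). Bmp5 had 6, 11 and 8 counts in Meis1-OE and 0, 0 and 1 in YFP-CTRL and was removed by the filter. It was called higher by DESeq2 (adjusted p = 0.0410) and by edgeR with no filter on low counts (adjusted p = 0.0476). Gdf2 and Bmp10, the ligands of Acvrl1, were listed at 0 in all libraries, and Bmp6 had at most 1 count.

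Among the 11 other receptors and co-receptors, 8 passed the filter and none passed edgeR's test, with a median log2 fold change of -0.14. At an unadjusted p under 0.05 in edgeR 1 was positive and 2 were negative, beside 26.2% of all genes tested. DESeq2 called 2 of 9 lower, Acvr1 and Bambi, beside 6.14% of all genes tested with DESeq2. Acvr1, the type I receptor ALK2, stood at 17.2, 16.8 and 17.7 CPM in Meis1-OE EC and at 31.1, 39.6 and 22.0 CPM in YFP-CTRL EC. The groups did not overlap, and the log2 fold change was -0.84 (edgeR, adjusted p = 0.0586, and DESeq2, 0.00865). Bambi, a receptor-like protein without a kinase, had a log2 fold change of -0.76 (edgeR, adjusted p = 0.0628, and DESeq2, 0.0114), and Rgmb, a BMP co-receptor, one of 0.40 (edgeR, adjusted p = 0.170), also with no overlap. Eng, the co-receptor endoglin, stood at 214, 208 and 215 CPM in Meis1-OE and at 133, 179 and 278 CPM in YFP-CTRL, so that all Meis1-OE values fell between the second and the third control, and its log2 fold change was 0.11 (edgeR, adjusted p = 0.820). Bmpr1a was listed at 0 in all libraries. The annotation and the counting tool are not given, so absence of its RNA and a gap in counting cannot be told apart.

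Among the 18 extracellular modulators, 9 passed the filter and 1 was higher, with a median log2 fold change of 0.06. This was Grem1, a secreted antagonist that binds BMP ligands, with 551, 490 and 451 counts in Meis1-OE EC and 61, 89 and 73 counts in YFP-CTRL EC. The groups were far apart, and the level rose from 1.86 ± 0.293 to 10.9 ± 1.16 CPM (SD, n = 3 each). The log2 fold change was 2.54 (standard error 0.19, edgeR, adjusted p = 0.00177), a ratio of 5.83, and it passed the threshold in all 14 alternatives run. Twsg1, which binds BMP ligands together with chordin, had a log2 fold change of 0.51 (edgeR, adjusted p = 0.0795, and DESeq2, 0.0494) with no overlap. Fst, the activin-binding protein follistatin, had one of -1.58 (edgeR, adjusted p = 0.0937, and DESeq2, 0.00454), with 155 CPM in YFP-CTRL library C against 53.2 and 49.4 CPM in libraries A and B. Fstl3 had 12, 11 and 10 counts in Meis1-OE and 4, 4 and 8 in YFP-CTRL and was removed by the filter.

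All 12 intracellular Smad cofactors and regulators passed the filter, 2 were lower and 0 higher in edgeR's test, and 10 of the 12 log2 fold changes were negative, with a median of -0.38. Fkbp1a, which binds type I receptors and holds back their kinase, stood at 579, 597 and 604 CPM in Meis1-OE EC and at 768, 1100.2 and 944 CPM in YFP-CTRL EC. Its log2 fold change was -0.66 (standard error 0.15, edgeR, adjusted p = 0.0428). Tob2, of a family of antiproliferative proteins, stood at 33.2, 34.7 and 37.4 CPM in Meis1-OE and at 68.7, 84.0 and 52.5 CPM in YFP-CTRL. Both genes had no overlap between conditions, and the log2 fold change of Tob2 was -0.96 (standard error 0.18, edgeR, adjusted p = 0.0254). Both calls were lost without any 1 Meis1-OE library, with adjusted p in edgeR from 0.15 to 0.201 for Fkbp1a and from 0.108 to 0.144 for Tob2. They were also lost without YFP-CTRL library B, with 0.114 and 0.0753 in edgeR. In the fits without 1 Meis1-OE library 0.798% to 2.43% of all genes tested passed, and without YFP-CTRL library B 1.64%. Fkbp1a also missed the threshold in edgeR on library totals (adjusted p = 0.0508) and with no filter on low counts (0.0520). Adjusted for the proliferation score, Tob2 had an adjusted p of 0.0959 in edgeR. Smad4, the partner of all receptor-activated Smads, stood at 80.1 ± 4.02 CPM in Meis1-OE and 107 ± 7.76 CPM in YFP-CTRL (SD, n = 3 each), with no overlap and a log2 fold change of -0.42 (edgeR, adjusted p = 0.0603, and DESeq2, 0.0269). Smurf1 and Smurf2, ubiquitin ligases that mark Smads and receptors for degradation, had log2 fold changes of -0.50 and -0.37, and Ppm1a, a phosphatase, one of -0.56, all without overlap and with adjusted p of 0.129, 0.132 and 0.0651 in edgeR. DESeq2 called 4 of the 12 lower, Fkbp1a, Tob2, Smad4 and Ppm1a (adjusted p = 0.0246 for Ppm1a), beside 6.14% of all genes tested with DESeq2. Without YFP-CTRL library C, 8 of the 12 genes were lower, in a fit where 15.2% of all genes tested were lower.

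Among the 10 other genes that respond to BMP, 5 passed the filter and 1, Hey1, was higher, with a median log2 fold change of 0.47. Hey1, a transcriptional repressor that Notch also induces, had 45, 38 and 43 counts in Meis1-OE EC and 16, 14 and 13 counts in YFP-CTRL EC. The groups did not overlap, and the log2 fold change was 1.33 (standard error 0.30, edgeR, adjusted p = 0.0457). The call was lost without any 1 Meis1-OE library and without YFP-CTRL library B, with adjusted p in edgeR from 0.141 to 0.192. In those fits 0.798% to 2.43% of all genes tested passed. The Hey1 call was also lost in edgeR with no filter on low counts (adjusted p = 0.0604) and with the proliferation covariate (0.0636). Hey2, a relative of Hey1, had a log2 fold change of 1.21 (edgeR, adjusted p = 0.123), and Msx1, a homeobox gene, one of 0.47 (edgeR, adjusted p = 0.145), both without overlap. Apln, the ligand of the apelin receptor, had one of -1.20 (edgeR, adjusted p = 0.0684, and DESeq2, 0.00413), with its lowest control, 456 CPM, just above its highest Meis1-OE value, 449 CPM. Id4, the remaining Id gene, had 1, 3 and 0 counts in Meis1-OE and 3, 3 and 5 in YFP-CTRL and was removed by the filter.

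The 3 E proteins that Id proteins bind all passed the filter, and none passed edgeR's test. In edgeR 1 of 3 had an unadjusted p under 0.05, beside 26.2% of all genes tested. DESeq2 called 0 of 3, beside 12.4% of all genes tested with DESeq2. Tcf4, the E protein also called E2-2, stood at 241, 269 and 267 CPM in Meis1-OE EC and at 213, 197 and 195 CPM in YFP-CTRL EC. The groups did not overlap, and the log2 fold change was 0.36 (standard error 0.10, edgeR, adjusted p = 0.0798).

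**Figure D5:**
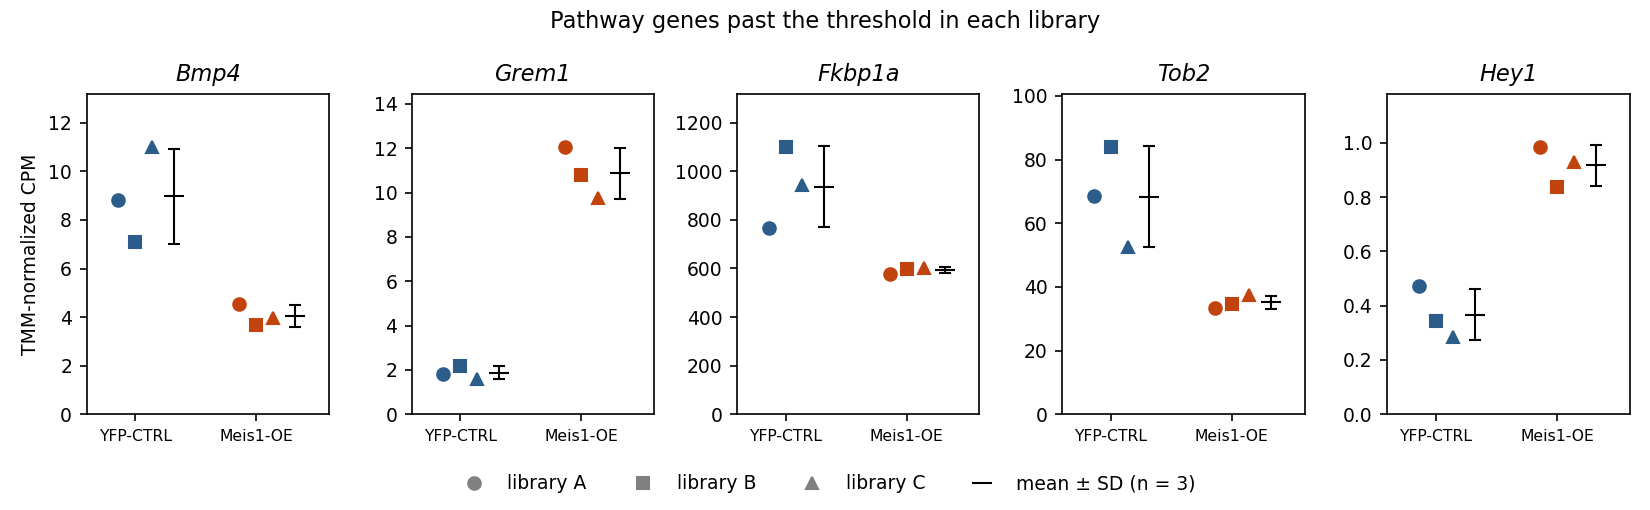
Level of the 5 pathway genes with an adjusted p under 0.05 in TMM-normalized CPM, on linear axes from 0, with 1 point per library (circle A, square B, triangle C) and the mean ± SD of 3 libraries in black. The conditions are separate in each panel, and the distance between them relative to the spread is widest for Grem1, at 10.9 ± 1.16 CPM in Meis1-OE and 1.86 ± 0.293 CPM in YFP-CTRL.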

How the data were processed

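RNA-seq was performed on 6 samples, 3 per condition, taken as 3 independent replicates as the study describes. The authors deposited estimated counts per gene, not normalized, in a table of 54429 genes by symbol. The build was mm10 per the labels, and the aligner, the counting tool, the annotation and any use of strand are not given in the sources used here. Counts were rounded to whole numbers and compared with edgeR 4.0.16 in R 4.3.3 (TMM normalization, the filterByExpr filter, quasi-likelihood test, Benjamini-Hochberg adjustment over all 16065 genes kept, threshold 0.05). Standard errors were derived from the F statistic. Limma 3.58.1 is a dependency of edgeR, and DESeq2 1.42.0, the program the study names, was an alternative. Other alternatives were a robust fit, scaling by DESeq2's size factors or by library totals alone, either no filter or a minimum of 10 counts per library, the proliferation score as a covariate, the column letter as a block, and leaving out each library. The fits were tested on simulated data. Intervals of log2 fold changes come from the edgeR fit and include the spread between libraries. The floor (3 counts) covers counting error only, since PCR copies were not marked by molecular identifiers.

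Conditions came from the labels. These number the replicates while the columns carry letters, and nothing ties letters to numbers. The genes named were the 10, the genes of the fixed pathway lists that passed the threshold or did not overlap between conditions, and Eng, Bmpr1a, Acvr1, Bmp2, Bmp4, Bmp6 and Smad4. Gdf2 and Bmp10 were named after their values were seen. Likeness used genes with a mean of at least 5 CPM, with a prior count of 2. The genes and lists were chosen with earlier results of these data known. Promoters were read from RefSeq (GRCm38.p6). Plots were made in Python 3.11.15 (matplotlib 3.10.9).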

Additional observations from a re-analysis of the deposited data

How the results depend on the processing

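The replicate block used the column letter. Same-letter libraries deviated from their group means with correlations of 0.267 (A), 0.120 (B) and 0.0697 (C). Meis1-OE libraries A and B correlated best with the control of their own letter, and Meis1-OE library C with YFP-CTRL library B (0.214). The letter was taken as a shared mark and not as a pairing, although the Id genes ran in the same letter order in both conditions. With the block, 544 genes were higher and 189 lower among all genes, against 665 and 438 without it, 0 of the 9 member genes were called, and 1 pathway gene was higher and 1 lower, against 2 and 3. The calls of Tob2 (edgeR, adjusted p = 0.0557), Fkbp1a (0.0682) and Hey1 (0.0715) were not made with the block. With the block the log2 fold change was 0.78 for Id2 (edgeR, adjusted p = 0.0972, and 0.195 without it). For Id3 it was -0.63 (edgeR, adjusted p = 0.120, and 0.273 without the block). For Smad6 it was 1.10 (edgeR, adjusted p = 0.0961, and 0.183 without the block). DESeq2 called 1128 higher and 1115 lower, and 4 and 9 pathway genes. On library totals, where the median of all genes moved from 0.01 to 0.15, 1048 genes were higher and 179 lower, and 4 pathway genes were higher. With the proliferation score as a covariate 376 genes were higher and 305 lower (4.24% in all), and among the 9 genes 1 (Smad7) was higher and 1 (Smad1) lower, with 4 pathway genes higher and 5 lower. With the covariate the log2 fold change was -0.14 for Acvrl1 (0.02 as reported) and -0.40 for Eng (0.11 as reported). Leaving out single libraries gave 115 to 2717 genes higher and 16 to 2498 lower. It gave 0 to 2 of the 9 genes higher (both without YFP-CTRL library C) and 0 lower, and 1 to 5 pathway genes higher and 0 to 14 lower. Over the same fits the log2 fold change ran from -0.11 to 0.13 for Acvrl1, from -0.21 to 0.36 for Smad7 and from -0.12 to 0.43 for Eng. Fits that leave out a library keep 2 in that group. Of the values for single genes under the alternatives, 350 kept direction and side of the threshold, 23 lost the call, 25 gained one and 6 changed sign. Apart from the construction of each alternative, the cause was not tested. For Smad9, at or below the floor in every library, no difference was detectable at this depth, and for Bmp5 the call turned on the filter and the tool.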
